A study of Mus musculus with 6 samples.

Results

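Smooth muscle, stromal and endothelial genes were followed in RNA from mucosa scraped off the mouse jejunum, the segment of small intestine between duodenum and ileum. The set holds 36 genes chosen by name for their known roles: 15 of the smooth muscle contractile apparatus, 17 of fibroblasts and their matrix and 4 of the endothelium. All 36 were found on the arrays, each with exactly 1 probe set whose annotation gives only that gene, among 19938 genes tested. The ISR2 group held 3 arrays of transgenic ISR2 mice, in which the cholesterol regulator SREBP2 is overactive in the intestine, and the other group held 3 arrays of their wild type littermates. All mice were C57/BL, 8 to 10 weeks old and fed regular chow. The sources used here do not give the construct, the promoter that drives the transgene or the cells it is active in. Whether the arrays of a group are separate mice is not stated in the labels, so p-values here cover only the spread among these arrays, which may be technical.

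The wall of the small intestine is built in layers. An absorptive epithelium covers a connective tissue core of fibroblasts, capillaries and lymphatic vessels, which also holds thin strands of smooth muscle. Below it lies the muscularis mucosae, a thin muscle sheet, then the collagen-rich submucosa with larger vessels, and then the thick outer muscle layers with interstitial cells of Cajal and enteric ganglia between them. Smooth muscle contracts when a calcium-activated kinase phosphorylates the light chain of myosin, which then pulls on actin filaments. Many genes of this apparatus are switched on together by serum response factor and its partner myocardin, which act through a DNA element called the CArG box. A mucosal scraping takes the epithelium with a varying amount of the tissue below it.

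The arrays gave log2 expression values made by the RMA method, on which a difference of 1 is a doubling. Array medians lay between 6.04 and 6.19, and arrays of a group had Pearson's r of 0.975 to 0.986 across genes, and an ISR2 and a wild type array 0.964 to 0.981. Srebf2, which encodes SREBP2, stood at 11.02, 10.85 and 11.16 in ISR2 arrays 1, 2 and 3, against 9.04, 9.15 and 9.50 in wild type arrays 1, 2 and 3, so every array fitted its label. The mean level of 15 epithelial marker genes was 11.01, 10.80 and 11.13 in the ISR2 arrays and 11.04, 10.96 and 11.30 in the wild type arrays. Levels of different genes depend on their probes and are not set against each other here.

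None of the 36 genes passed an adjusted p of 0.05 between ISR2 and wild type mucosa in limma (0 higher, 0 lower). Of all genes tested, 602 passed (3.02%), with 356 higher in ISR2 (1.79%) and 246 lower (1.23%); with each array centred on its median, 415 were higher and 155 lower. The adjusted p of the 36 lay between 0.307 and 0.995. At an unadjusted p under 0.05, 1 of the 36 passed, the endothelial gene Vwf, against 13.1% of all genes. For 0 of the 36 did all ISR2 arrays lie above all wild type arrays (5.87% of all genes), and for 1, the collagen gene Col5a1, did they all lie below (13.9% of all genes). The smooth muscle genes varied widely between arrays of the same group. Their median SD was 1.10 in ISR2 and 1.87 in wild type on the log2 scale, against 0.18 in ISR2 and 0.15 in wild type over all genes. In bulk tissue, fewer cells of a type and less RNA per cell cannot be told apart, and this holds for every value below.

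**Figure D1:**
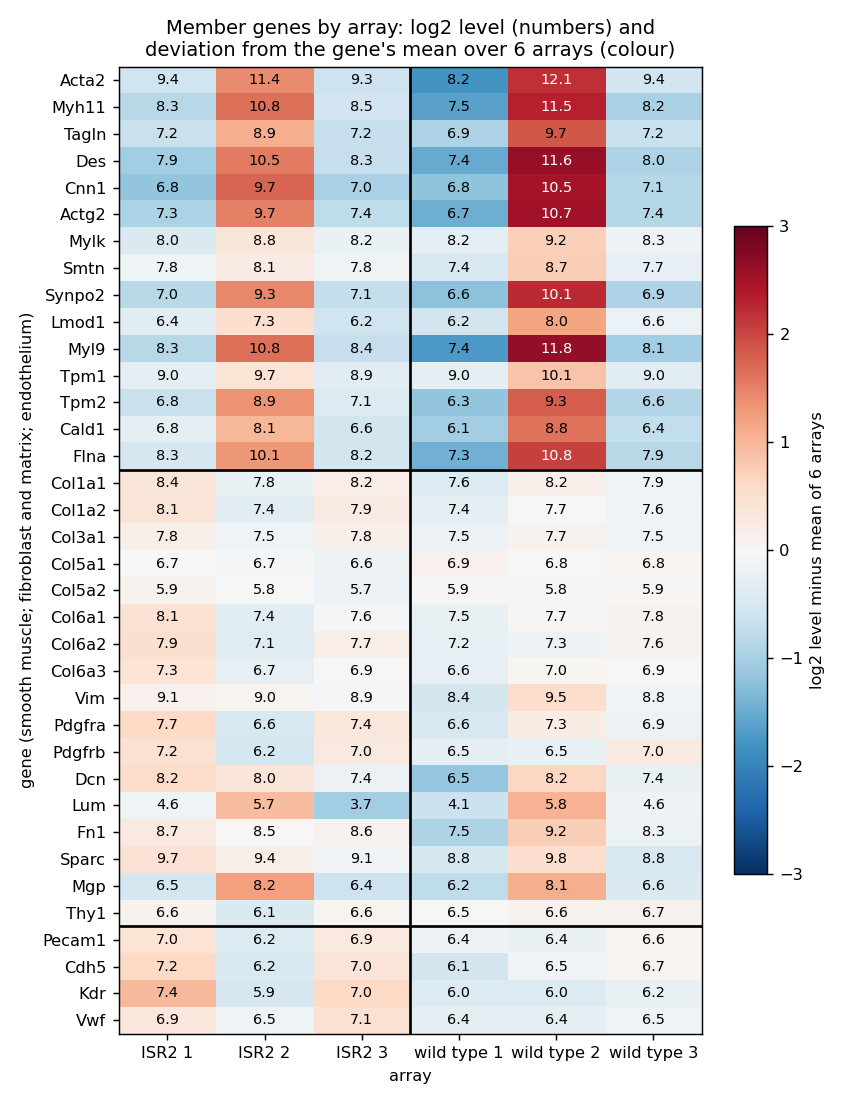
Log2 level of each of the 36 genes (rows, printed in the cells) in ISR2 arrays 1 to 3 (left of the line) and wild type arrays 1 to 3 (right of it); colour shows the deviation from the gene's own mean over the 6 arrays. The smooth muscle genes stand high in array 2 of both groups, and the 4 endothelial genes stand low in ISR2 array 2.

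A CArG box was looked for in the promoters of the members, from 250 bases before to 50 after the start of the gene in RefSeq sequences of build GRCm38.p6, which held 22 of the 36 members. The box is a pair of C, 6 bases that are A or T, and a pair of G, and it reads as a CArG box on both strands. The promoters of the other members, among them Myh11, Tagln and Actg2 of smooth muscle, were not searched. An exact box was present in 1 of the 22, Myl9, against 1.81% of 27025 genes. A box with 1 mismatch, a G or C among the 6 central bases, was present in 5 of the 22 (Acta2, Myl9, Col1a2, Col6a3 and Kdr), against 9.69% of all genes. A box of either kind was present in 2 of 12 smooth muscle genes (16.7%) and 2 of 9 fibroblast and matrix genes (22.2%). It was present in the 1 endothelial gene found and in 11.3% of all genes. With so few genes per role, and the other members not searched, these shares do not rank the roles. Both promoters with boxes among the 12 smooth muscle genes found are shown, because both encode core parts of the contractile apparatus, with the boxes in capitals.
Acta2 (chr19:34255324-34255623, minus strand): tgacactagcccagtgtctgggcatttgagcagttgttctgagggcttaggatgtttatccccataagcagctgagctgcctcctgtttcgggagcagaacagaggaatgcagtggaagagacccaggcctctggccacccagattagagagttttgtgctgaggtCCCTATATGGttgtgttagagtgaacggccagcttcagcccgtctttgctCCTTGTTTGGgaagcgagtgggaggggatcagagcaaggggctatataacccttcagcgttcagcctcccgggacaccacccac
Myl9 (chr2:156775214-156775513, plus strand): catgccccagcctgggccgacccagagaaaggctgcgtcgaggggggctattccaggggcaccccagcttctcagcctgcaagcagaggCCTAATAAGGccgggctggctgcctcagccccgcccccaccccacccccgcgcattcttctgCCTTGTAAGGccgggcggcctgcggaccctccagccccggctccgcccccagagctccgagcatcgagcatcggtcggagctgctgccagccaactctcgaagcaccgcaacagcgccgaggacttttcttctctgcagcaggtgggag
In Acta2 the boxes CCCTATATGG and CCTTGTTTGG lie 84 to 75 and 34 to 25 bases before the start, each with 1 mismatch. In Myl9 the exact box CCTAATAAGG lies 161 to 152 bases before the start and CCTTGTAAGG, with 1 mismatch, 99 to 90 bases before it. A match describes these letters only, and binding was not measured.

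The smooth muscle genes did not differ between ISR2 and wild type mucosa beyond the spread between arrays, and that spread was very wide. Acta2, which encodes the smooth muscle alpha actin of thin filaments, stood at 9.36, 11.38 and 9.33 in ISR2 arrays 1, 2 and 3, against 8.16, 12.14 and 9.38 in wild type arrays 1, 2 and 3. Array 2 was the highest of its group in both, and the groups overlapped. Acta2 averaged 10.02 ± 1.17 in ISR2 and 9.90 ± 2.04 in wild type (SD, n = 3 each), a log2 change of 0.13 with a 95% interval of -1.93 to 2.19 (limma adjusted p = 0.976). Its highest array exceeded its lowest by 4.15-fold within ISR2 and by 15.8-fold within wild type.

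Actg2, the gamma actin of gut and other visceral smooth muscle, stood at 7.25, 9.71 and 7.43 in ISR2, against 6.75, 10.73 and 7.36 in wild type. Myh11, the heavy chain of smooth muscle myosin and the most specific marker of the mature cell, stood at 8.28, 10.77 and 8.54 in ISR2, against 7.50, 11.45 and 8.15 in wild type. As for Acta2, array 2 stood far above the other arrays of its group, and wild type array 1 was the lowest of that group. The log2 change was -0.15 for Actg2 (95% interval -2.37 to 2.08, adjusted p = 0.974) and 0.16 for Myh11 (-2.04 to 2.37, adjusted p = 0.970).

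Myl9, the regulatory light chain whose phosphorylation starts contraction, had the widest swing of the set within wild type. It stood at 8.28, 10.77 and 8.44 in ISR2, against 7.40, 11.76 and 8.07 in wild type, a range of 5.62-fold in ISR2 and 20.5-fold in wild type. Its log2 change was 0.09 ± 1.05 (SE), with a 95% interval of -2.30 to 2.47. The kinase that phosphorylates it, encoded by Mylk, moved less: 8.03, 8.83 and 8.25 in ISR2, against 8.16, 9.16 and 8.30 in wild type. Mylk is also expressed outside muscle, and its highest array exceeded its lowest by 1.74-fold in ISR2 and 2.00-fold in wild type. Its log2 change was -0.17, with a 95% interval of -0.82 to 0.47.

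Des, the intermediate filament desmin that ties the contractile units together, stood at 7.93, 10.52 and 8.26 in ISR2, against 7.45, 11.58 and 8.04 in wild type. Tagln, the actin-binding protein transgelin, stood at 7.17, 8.95 and 7.15 in ISR2, against 6.93, 9.72 and 7.19 in wild type. Cnn1, calponin, which restrains the myosin motor on actin, stood at 6.78, 9.70 and 6.99 in ISR2, against 6.76, 10.47 and 7.11 in wild type. In all 3 genes the other 2 arrays of each group lay nearer to each other than to array 2. Cnn1 had the widest range within ISR2 of any member, 7.61-fold. The log2 changes were -0.12 for Des, -0.19 for Tagln and -0.29 for Cnn1, with adjusted p of 0.980, 0.953 and 0.947.

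In the other genes of the apparatus array 2 was again the highest of its group, by different widths. Lmod1, leiomodin, which nucleates actin filaments, stood at 6.44, 7.27 and 6.17 in ISR2, against 6.21, 7.95 and 6.58 in wild type (log2 change -0.29, 95% interval -1.26 to 0.68). Tpm1, a tropomyosin that lies along actin in many cell types, stood at 8.98, 9.69 and 8.94 in ISR2, against 8.98, 10.14 and 8.96 in wild type (log2 change -0.16, 95% interval -0.90 to 0.57). In both genes the groups overlapped, and arrays 1 and 3 of a group lay close together. Tpm2, a second tropomyosin, Cald1, the actin- and myosin-binding caldesmon, and Synpo2, an actin-bundling protein, ranged over 8.01-fold, 6.36-fold and 11.1-fold within wild type. Flna, the actin crosslinker filamin A, ranged over 3.61-fold within ISR2 and 11.3-fold within wild type. Smtn, smoothelin of contractile smooth muscle, had the narrowest range in ISR2 of the 15, with 7.77, 8.15 and 7.80, against 7.43, 8.66 and 7.66 in wild type. The log2 changes of these 5 lay between -0.07 for Synpo2 and 0.18 for Tpm2.

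**Figure D2:**
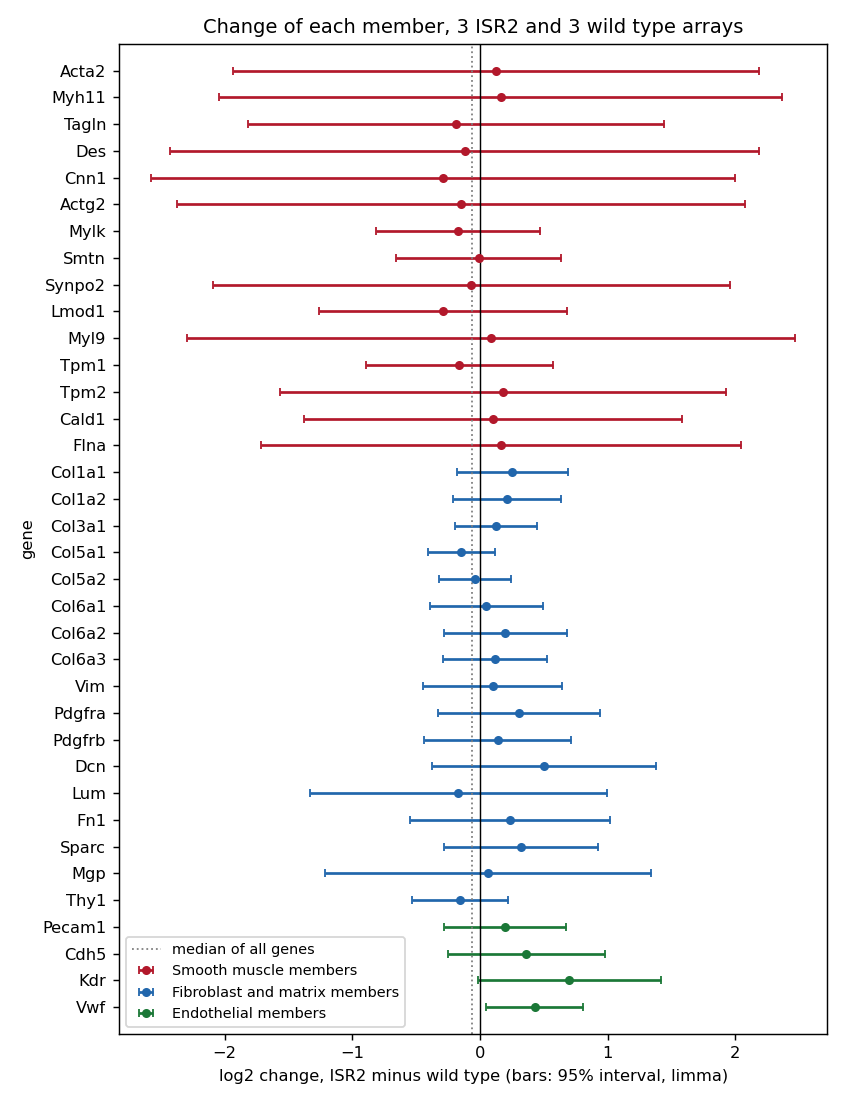
Log2 change of each gene (points), ISR2 minus wild type, with its 95% interval from limma (bars) over 3 arrays per group; the dotted line marks the median of all genes, -0.06. The intervals of the smooth muscle genes reach from -2.58 (Cnn1) to 2.47 (Myl9), and Vwf is the member whose interval lies wholly above 0.

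Array 2 was the highest ISR2 array in 15 of 15 smooth muscle genes, against 36.8% of all genes. Wild type array 2 was the highest of all 6 arrays in 15 of 15 (15.3% of all genes). Wild type array 1 was the lowest of all 6 in 12 of 15 (11.3% of all genes). The mean level of the 15 genes was 7.68, 9.47 and 7.75 in ISR2 arrays 1, 2 and 3, and 7.21, 10.18 and 7.65 in wild type arrays 1, 2 and 3. Set against the mean of the other 2 arrays of its group, array 2 stood higher by a median of 1.90 in ISR2 (0.36 to 2.82) and by 3.20 in wild type (0.93 to 4.02). Over all genes the same median was -0.02 in ISR2 and -0.04 in wild type. Of the 35 genes on the whole array with an SD over 1 among ISR2 arrays, 10 were smooth muscle members and 1 was the matrix gene Mgp. Among wild type arrays 69 genes had such an SD, of which 11 were members, all of smooth muscle, and wild type array 2 was the highest in 66 of the 69. The SD was smaller in ISR2 than in wild type in 15 of 15 smooth muscle genes, and in 8472 of 19938 genes over the whole array. It is a comparison of 3 arrays with 3 that was not tested, and the 15 genes share those arrays.

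The median log2 change of the smooth muscle genes was -0.07, with 6 of 15 higher and 9 lower in ISR2, against -0.06 over all genes, of which 7465 were higher and 12473 lower. With each array centred on its median this value became 0.012, and with limma's array weights -0.57. Without the arrays numbered 2 of both groups, a setting chosen after seeing the data that leaves 2 arrays per group, it became 0.30. In that setting Acta2 changed by 0.57 (adjusted p = 0.529) and Myh11 by 0.59 (adjusted p = 0.337) on the log2 scale, and 0 of the 15 were called, against 2.19% of all genes.

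**Figure D3:**
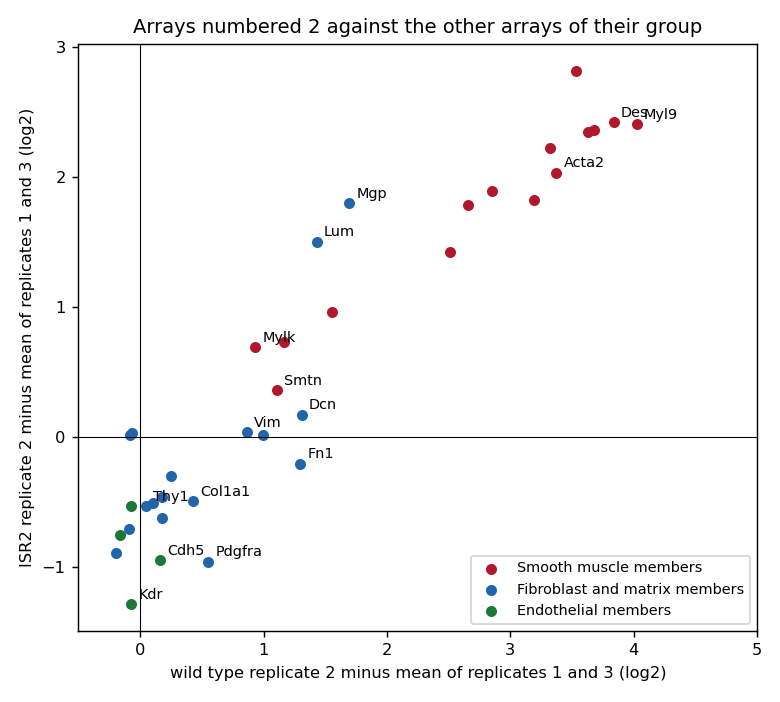
Level in array 2 minus the mean of arrays 1 and 3 of the same group (log2) for each member, in ISR2 (vertical axis) and in wild type (horizontal axis). All 15 smooth muscle genes lie above 0 on both axes, while the 4 endothelial genes lie below 0 on the ISR2 axis.

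Over the 36 members the step of array 2 in ISR2 and its step in wild type had Pearson's r of 0.95, and over all genes 0.32. Within the roles r was 0.96 for smooth muscle, 0.74 for fibroblast and matrix and -0.21 for the 4 endothelial genes. The step was positive in both groups in 20 of the 36, and negative in ISR2 but positive in wild type in 9. The pooled r thus does not mean that all members shared a rise in array 2. Both values describe 2 arrays per gene, and genes are not independent replicates. Of 17 other smooth muscle genes measured, ISR2 array 2 was the highest ISR2 array in 11 (36.8% of all genes). Wild type array 2 was the highest wild type array in 15 (25.7% of all genes), and 0 of the 17 were called. Pgm5, a protein of muscle adhesion sites, had the largest wild type SD among them and stood at 6.52, 8.60 and 6.31 in ISR2, against 5.58, 9.28 and 6.58 in wild type. Myocd, the coactivator myocardin, named after its values were seen, stood at 5.51, 6.61 and 5.73 in ISR2, against 5.41, 7.29 and 5.54 in wild type. Srf, which encodes serum response factor, shared this order in wild type but not in ISR2, where array 2 was the lowest: it stood at 9.11, 8.58 and 8.96 in ISR2, against 8.03, 8.57 and 8.19 in wild type. Srf thus lay higher in every ISR2 array, with the closest pair 8.58 and 8.57, as in 2 of the 17 (5.87% of all genes). Its log2 change of 0.62 did not pass (95% interval 0.20 to 1.04, adjusted p = 0.157).

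The mean levels of markers of cells that lie within or next to the outer muscle layers were mostly highest in array 2 as well, but not every marker was. For 4 genes of interstitial cells of Cajal, the pacemaker cells of gut muscle, the mean level was 5.97, 6.53 and 5.98 in ISR2, against 5.73, 7.03 and 6.005 in wild type. For 11 genes of enteric neurons it was 5.51, 6.02 and 5.49 in ISR2, against 5.68, 5.98 and 5.56 in wild type. For 6 genes of enteric glia it was 5.34, 5.71 and 5.24 in ISR2, against 5.21, 5.81 and 5.20 in wild type. In each of these 3 lists array 2 had the highest mean of its group, as for smooth muscle. By gene, it was the highest ISR2 array in 3 of 4, 11 of 11 and 5 of 6 (36.8% of all genes). In wild type it was the highest in 4 of 4, 9 of 11 and 4 of 6 (25.7% of all genes). It was the lowest wild type array in 2 neuron and 2 glia genes. Mesothelium is the outermost cell sheet. The mean of its 5 genes was 5.51, 5.67 and 5.44 in ISR2, against 5.83, 5.81 and 5.77 in wild type. By this mean array 2 was highest in ISR2 alone. By gene it was the highest in 2 of 5 in ISR2 (36.8% of all genes) and 2 of 5 in wild type (25.7% of all genes). Epithelial markers were lowest in array 2 of both groups by the list mean. Of the markers in these 5 lists, 1 was called, the epithelial gene Ezr, which fell in ISR2 (3.02% of all genes were called). All ISR2 arrays lay below all wild type arrays in 5 of 15 epithelial, 3 of 5 mesothelial and 1 of 11 neuron genes (13.9% of all genes). They all lay above in 1 of the 15 epithelial genes (5.87% of all genes). The part of any cell type in the spread of the smooth muscle genes was not tested.

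**Figure D4:**
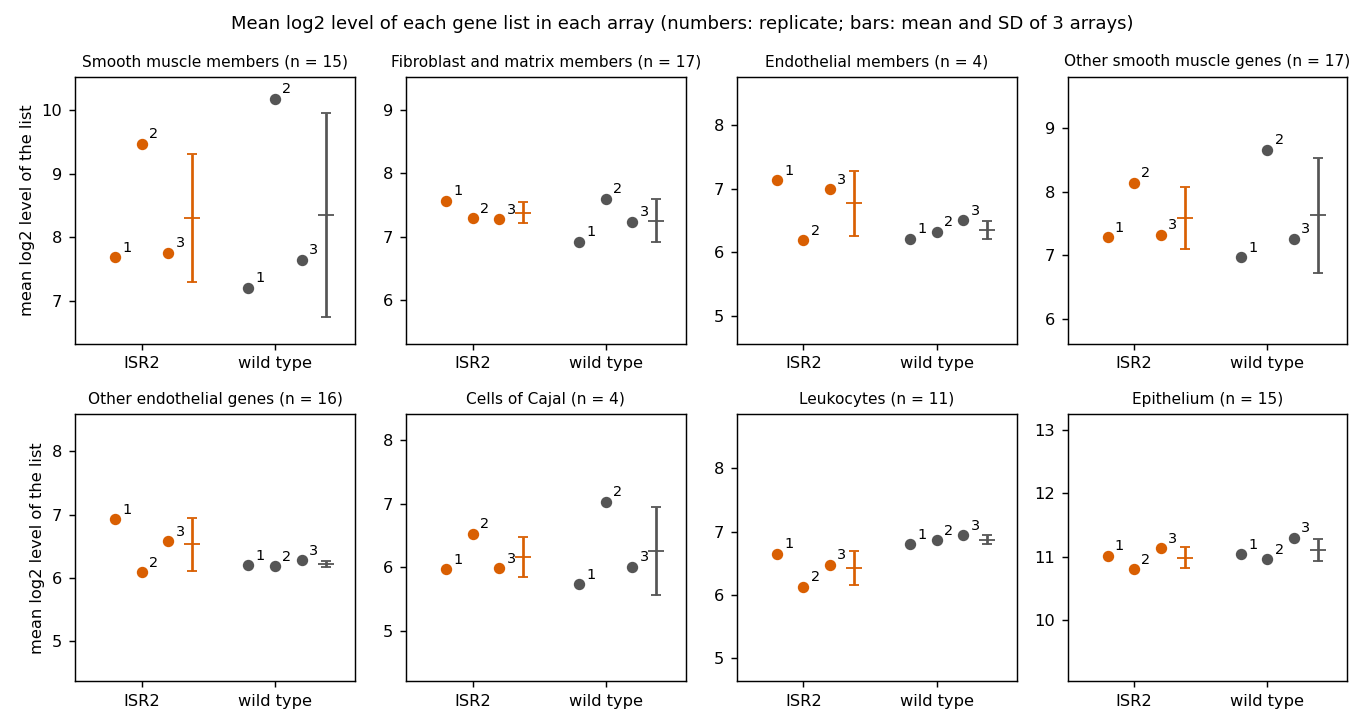
Mean log2 level of the genes of each list in each array (numbers give the replicate; bars give the mean and SD of 3 arrays), ISR2 left and wild type right in each panel, with the same span of log2 units in every panel. Array 2 stands above the other arrays of its group for smooth muscle (9.47 in ISR2, 10.18 in wild type) and below them for the endothelium in ISR2 (6.19).

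The fibroblast and matrix genes were less spread, and their ISR2 arrays took another order than in the smooth muscle genes. Their median log2 change was 0.13, with 13 of 17 higher and 4 lower in ISR2, and their median SD was 0.33 in ISR2 and 0.28 in wild type. Their mean level was 7.57, 7.30 and 7.27 in ISR2 arrays 1, 2 and 3, and 6.92, 7.60 and 7.24 in wild type arrays 1, 2 and 3. ISR2 array 1 was the highest ISR2 array in 15 of 17, against 28.5% of all genes. In wild type the order of the means was that of the smooth muscle genes, with array 2 the highest wild type array in 11 of 17 (25.7% of all genes) and array 1 the lowest in 15 of 17 (28.3% of all genes).

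Col1a1, a chain of type I collagen, the main fibre of connective tissue, stood at 8.40, 7.82 and 8.23 in ISR2, against 7.63, 8.18 and 7.89 in wild type. Array 2 was the lowest ISR2 array and the highest wild type array, and the groups overlapped. Col1a1 averaged 8.15 ± 0.30 in ISR2 and 7.90 ± 0.28 in wild type (SD, n = 3 each), a log2 change of 0.25 (95% interval -0.18 to 0.69, adjusted p = 0.663). Its partner chain Col1a2 gave the same order of ISR2 arrays, with 8.07, 7.38 and 7.92 in ISR2, against 7.42, 7.70 and 7.61 in wild type. Col3a1, the collagen of fine reticular fibres, stood at 7.82, 7.50 and 7.78 in ISR2, against 7.47, 7.74 and 7.52 in wild type, a log2 change of 0.13 (95% interval -0.20 to 0.45).

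Col5a1, a chain of type V collagen, which sets the width of type I fibrils, was the member whose groups did not overlap. It stood at 6.74, 6.69 and 6.60 in ISR2, against 6.87, 6.77 and 6.83 in wild type. All ISR2 arrays lay below all wild type arrays, by a small margin, and the log2 change of -0.15 did not pass (95% interval -0.41 to 0.12, adjusted p = 0.682). Its partner Col5a2 changed by -0.04. The type VI chains Col6a1, Col6a2 and Col6a3, which form beaded filaments around cells, changed by 0.05, 0.20 and 0.12. In each of the 3 type VI genes ISR2 array 1 was the highest and ISR2 array 2 the lowest ISR2 array, at 8.12 and 7.38 for Col6a1.

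Pdgfra, the receptor for platelet-derived growth factor that marks fibroblasts of the gut, stood at 7.68, 6.60 and 7.43 in ISR2, against 6.60, 7.30 and 6.90 in wild type. ISR2 array 2 stood level with the lowest wild type array, and the other ISR2 arrays lay above all wild type arrays. Its log2 change was 0.31 (95% interval -0.33 to 0.94, adjusted p = 0.728). Pdgfrb, the related receptor of pericytes and other mural cells, stood at 7.18, 6.21 and 7.01 in ISR2, against 6.46, 6.53 and 6.99 in wild type. Thy1, a surface protein of fibroblasts that T cells of mice also carry, stood at 6.64, 6.10 and 6.63 in ISR2, against 6.53, 6.65 and 6.66 in wild type. In all 3 genes array 2 was the lowest ISR2 array, and neither Pdgfrb (log2 change 0.14) nor Thy1 (-0.16) passed.

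Dcn, the small proteoglycan decorin that binds collagen, had the largest log2 change of the matrix genes, and it stood at 8.17, 7.98 and 7.44 in ISR2, against 6.46, 8.23 and 7.39 in wild type. Wild type array 1 lay well below the other arrays, and wild type array 2 was the highest of all. Dcn averaged 7.86 ± 0.38 in ISR2 and 7.36 ± 0.89 in wild type (SD, n = 3 each), and the log2 change of 0.50 did not pass (95% interval -0.37 to 1.38, adjusted p = 0.669). Fn1, the adhesive matrix protein fibronectin, stood at 8.74, 8.45 and 8.57 in ISR2, against 7.54, 9.22 and 8.30 in wild type, a range of 1.22-fold in ISR2 and 3.20-fold in wild type. Sparc, a collagen-binding secreted protein, stood at 9.68, 9.43 and 9.14 in ISR2, against 8.76, 9.76 and 8.77 in wild type (log2 change 0.32, adjusted p = 0.698). Vim, vimentin, the intermediate filament of mesenchymal cells, stood at 9.08, 9.02 and 8.88 in ISR2, against 8.38, 9.47 and 8.82 in wild type (log2 change 0.10, adjusted p = 0.914). These 4 genes shared the wild type order, with array 2 highest and array 1 lowest, and in ISR2 array 1 was the highest.

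Mgp and Lum shared the top place of array 2 with the smooth muscle genes. Their lowest ISR2 array was array 3, as in 6 of the 15 smooth muscle genes. Mgp, matrix Gla protein, which is made by vascular smooth muscle and keeps vessels from calcifying, stood at 6.49, 8.23 and 6.38 in ISR2, against 6.25, 8.10 and 6.56 in wild type. Lum, the proteoglycan lumican that spaces collagen fibrils, stood at 4.61, 5.66 and 3.71 in ISR2, against 4.11, 5.78 and 4.60 in wild type. Array 2 was the highest of its group in both groups for both genes, and they were the only fibroblast and matrix members for which it was the highest ISR2 array. Array 2 exceeded the mean of the other 2 arrays by 1.80 in ISR2 and 1.70 in wild type for Mgp, and by 1.51 in ISR2 and 1.43 in wild type for Lum. The log2 change between groups was 0.06 for Mgp (95% interval -1.21 to 1.34) and -0.17 for Lum (-1.33 to 0.99).

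Of 26 other fibroblast and matrix genes measured, 20 were higher and 6 lower in ISR2 with a median log2 change of 0.12, and 0 were called. Lamc1, a laminin chain of basement membranes, had the smallest p among them and stood at 7.67, 7.46 and 7.85 in ISR2, against 6.59, 7.22 and 6.99 in wild type. All its ISR2 arrays lay above all wild type arrays, as in 2 of the 26 (5.87% of all genes). Its log2 change of 0.73 did not pass (adjusted p = 0.0824). Postn, periostin, had the largest wild type SD of these 26 and stood at 5.71, 6.82 and 5.10 in ISR2, against 4.62, 7.58 and 5.11 in wild type, with array 2 highest in both groups.

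**Figure D5:**
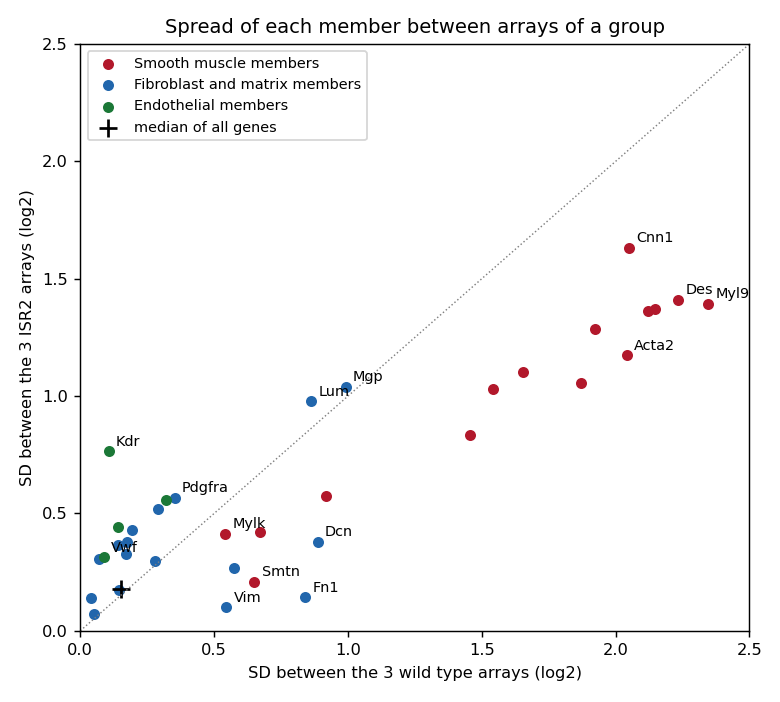
SD of each member between the 3 ISR2 arrays (vertical axis) against its SD between the 3 wild type arrays (horizontal axis), both on the log2 scale, with a dotted line where they are equal. The 15 smooth muscle genes lie below the line, with medians of 1.10 in ISR2 and 1.87 in wild type, and the 4 endothelial genes lie above it.

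The endothelial genes had the largest median log2 change of the 3 roles, 0.40, with 4 of 4 higher in ISR2, and none was called. Kdr, the main receptor for vascular endothelial growth factor, stood at 7.39, 5.91 and 7.00 in ISR2 arrays 1, 2 and 3, against 5.996, 6.02 and 6.19 in wild type arrays 1, 2 and 3. ISR2 arrays 1 and 3 lay above every wild type array, and ISR2 array 2 lay below every one. Kdr averaged 6.77 ± 0.77 in ISR2 and 6.07 ± 0.11 in wild type (SD, n = 3 each), a 1.62-fold difference (log2 change 0.70, 95% interval -0.02 to 1.42, unadjusted p = 0.0549, adjusted p = 0.398). Without ISR2 array 2 the log2 change of Kdr was 1.13 and it passed (adjusted p = 0.00606), as 2.95% of all genes did in that fit.

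Vwf, the von Willebrand factor that endothelial cells store for clotting, stood at 6.95, 6.49 and 7.09 in ISR2, against 6.36, 6.36 and 6.51 in wild type. ISR2 array 2 lay just under the highest wild type array, and the other ISR2 arrays lay above all of them. Vwf averaged 6.84 ± 0.31 in ISR2 and 6.41 ± 0.09 in wild type (SD, n = 3 each), a 1.35-fold difference (log2 change 0.43, 95% interval 0.05 to 0.81, unadjusted p = 0.0308, adjusted p = 0.307). With limma's array weights, which gave ISR2 array 1 a weight of 4.06 and ISR2 array 2 a weight of 0.40, Kdr (log2 change 1.16, adjusted p = 0.0193) and Vwf (0.52, adjusted p = 0.0351) passed, as 6.36% of all genes did. Without the arrays numbered 2 of both groups, a setting chosen after seeing the data, Kdr passed (1.10, limma adjusted p = 0.0220), in a fit where 2.19% of all genes did. This setting, the array weights and the fit without ISR2 array 2 all drop that array or give it little weight, so they are not separate checks. When 1 array at a time was left out, the log2 change of Kdr ranged from 0.39 to 1.13.

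Cdh5, the cadherin that seals endothelial junctions, stood at 7.22, 6.17 and 7.01 in ISR2, against 6.08, 6.55 and 6.69 in wild type. Pecam1, the adhesion protein CD31, stood at 6.99, 6.18 and 6.87 in ISR2, against 6.43, 6.38 and 6.64 in wild type. In both genes ISR2 array 2 was the lowest ISR2 array and the other ISR2 arrays lay above all wild type arrays. The log2 change was 0.36 for Cdh5 (95% interval -0.25 to 0.98, adjusted p = 0.658) and 0.20 for Pecam1 (-0.28 to 0.67, adjusted p = 0.780). Among the 4 genes ISR2 array 2 was the lowest ISR2 array in 4, against 41.5% of all genes. Its difference from the mean of the other 2 ISR2 arrays was -1.28 to -0.53. The SD was larger in ISR2 than in wild type in 4 of 4, with medians of 0.50 in ISR2 and 0.12 in wild type. Over all genes the wild type SD was the larger in 8472 of 19938, so a larger ISR2 SD was common. These genes share the same arrays and are not separate evidence.

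Other markers of blood vessels took the same order of ISR2 arrays. Of 16 other endothelial genes, 15 were higher in ISR2, with a median log2 change of 0.27, and 0 were called. Their mean level was 6.93, 6.10 and 6.58 in ISR2, against 6.20, 6.18 and 6.28 in wild type. ISR2 array 1 was the highest ISR2 array in 16 of 16 (28.5% of all genes). ISR2 array 2 was the lowest in 14 (41.5% of all genes). Cd34, a surface protein of capillaries and of some fibroblasts, stood at 6.85, 5.86 and 6.24 in ISR2, against 5.72, 5.77 and 5.74 in wild type. Its ISR2 arrays all lay above its wild type arrays, as in 1 of the 16 (5.87% of all genes). Its log2 change of 0.57 did not pass (adjusted p = 0.302). Clec14a had the smallest p of the 16, and its groups overlapped (limma adjusted p = 0.267). For 5 genes of lymphatic endothelium the mean was 6.39, 5.77 and 6.25 in ISR2, against 6.12, 5.99 and 6.49 in wild type, with array 2 lowest in both groups.

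The list means of leukocyte and fat cell markers also set ISR2 array 2 apart from the other ISR2 arrays. The mean of 11 leukocyte genes was 6.65, 6.13 and 6.48 in ISR2, against 6.80, 6.86 and 6.94 in wild type, with array 2 the lowest in ISR2 and array 1 the lowest in wild type. Of the 11, 10 were lower in ISR2, with a median log2 change of -0.35, against -0.06 over all genes. All ISR2 arrays lay below all wild type arrays in 4 of the 11 (13.9% of all genes). Those called lower were 2 of the 11, against 1.23% of all genes, the T cell genes Cd3e (log2 change -1.08) and Cd8a (-0.91). In both of these array 3 was the lowest ISR2 array. The mean of 4 adipocyte genes was 6.12, 6.84 and 5.82 in ISR2, against 6.39, 6.07 and 6.38 in wild type, so ISR2 array 2 was the highest array and wild type array 2 the lowest wild type array. Between the groups the 4 genes did not move together, with 2 higher and 2 lower in ISR2, and 0 were called. Cidec lay lower in every ISR2 array (log2 change -0.74), as in 1 of the 4 (13.9% of all genes). Adipoq (0.40) and Retn (0.29) were higher. The part of leukocytes and fat cells in the values of the endothelial and matrix genes was not tested.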

How the data were processed

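Total RNA of jejunal mucosal scrapings was labelled with biotin for Affymetrix whole-transcript arrays, per the labels' protocols. The authors deposited log2 values from RMA, as named in the submitters' processing notes, without a version or a genome build in the sources used here. RMA equalises the distributions of the arrays, so changes are relative to the bulk of genes, and it can compress changes of dim genes.

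Of 35556 rows, 21789 had 1 gene symbol; of the 999 genes with several such rows, the row brightest on average over the 6 arrays stood for the gene. No detection filter was applied. Groups came from the sample titles. A linear model of ISR2 against wild type without covariates was fitted to all 19938 genes (limma 3.58.1, R 4.3.3, lmFit then eBayes). Two-sided p-values were adjusted over all genes (Benjamini-Hochberg), and 0.05 was the threshold. The steps were tested on simulated data.

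The members and lists, the companion lists of other cell types included, were chosen with earlier results of these data known, so no list was tested as a set. All members are accounted for. The values in every array are given for 16 members listed by name, for the 3 smallest p of each role and the 2 largest SDs of each group; the arrays of other members were added where they show an order. Of a companion list, only genes among the 3 smallest p or, for 3 lists, the 3 largest wild type SDs were named, except Myocd. Promoters came from RefSeq, and both strands were searched. Plots used matplotlib 3.10.9 (Python 3.11.15). Alternatives were other eBayes options, array weights, 2 further scalings, a level filter, other uses of rows, the replicate number as a block, a looser threshold, and each array left out in turn.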

Additional observations from a re-analysis of the deposited data

How the results depend on the processing

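With the replicate number as a block, 0 of 36 members and 778 genes passed, and no call on a member changed. Pairing by number was not established. The deviations of same-numbered arrays from their group means had r of -0.02, 0.32 and 0.54 over genes, so ISR2 arrays 2 and 3 correlated best with their own number and ISR2 array 1 with wild type array 3 (0.13). No member passed with an intensity trend or robust eBayes, with either further scaling, with the level filter (34 members remained), with all rows, with the mean of rows or at an adjusted p of 0.10. With array weights 2 members passed (Kdr and Vwf), without the arrays numbered 2 of both groups 1 passed (Kdr), and leaving out 1 array at a time gave 0 to 1 (Kdr, without ISR2 array 2). The median SD of the members, 0.48 in ISR2 and 0.61 in wild type, was 0.13 in ISR2 and 0.22 in wild type without the arrays numbered 2, and 0.13 to 0.59 in ISR2 and 0.22 to 0.79 in wild type when 1 array was left out. Over all genes, array weights called 1268, all rows 416, an adjusted p of 0.10 837 and leaving out 1 array 335 to 589, against 602; centring each array on its median called 415 higher and 155 lower, against 356 higher and 246 lower. Centring moved the smooth muscle median to 0.012. Array weights gave medians of -0.57 for smooth muscle, 0.33 for fibroblast and matrix, 0.60 for endothelial and -0.057 for all members, which were -0.07, 0.13, 0.40 and 0.11 without them. Changes of sign, all without a call, were as follows, and their cause was not tested. Array weights gave Acta2 -0.57, Myh11 -0.74, Myl9 -0.82, Tpm2 -0.56, Cald1 -0.33, Flna -0.47, Col5a2 0.050, Mgp -0.46. Centring gave Smtn 0.070, Synpo2 0.012, Col5a2 0.042, and quantile normalization Col5a2 0.051. Leaving out the arrays numbered 2 gave Tagln 0.11, Des 0.35, Actg2 0.29, Smtn 0.24, Synpo2 0.30, Thy1 0.038. Leaving out 1 array at a time turned the sign of 24 members, with these ranges of log2 change: Acta2 -0.74 to 1.25, Actg2 -0.94 to 1.08, Cald1 -0.40 to 0.94, Cnn1 -1.23 to 0.89, Col5a2 -0.10 to 0.037, Col6a1 -0.15 to 0.22, Col6a3 -0.057 to 0.27, Des -0.93 to 1.16, Flna -0.52 to 1.23, Fn1 -0.17 to 0.67, Lmod1 -0.64 to 0.23, Lum -0.67 to 0.31, Mgp -0.54 to 0.63, Myh11 -0.62 to 1.37, Myl9 -0.75 to 1.43, Mylk -0.40 to 0.14, Pdgfrb -0.053 to 0.44, Smtn -0.25 to 0.36, Synpo2 -0.81 to 1.04, Tagln -0.78 to 0.70, Thy1 -0.25 to 0.021, Tpm1 -0.40 to 0.23, Tpm2 -0.45 to 1.13, Vim -0.15 to 0.39. The sign of the other 12 never turned in those fits. Precision is limited by the number of arrays: the 95% interval of Acta2 runs from -1.93 to 2.19, so these arrays do not settle the sign or size of its change within those bounds.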
